A study of Mus musculus with 6 samples.

Results

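Tbx2, Tbx3, Tbx15, Tbx18 and Tbx22 are 5 T-box transcription factor genes of the palate mesenchyme, and they are described here in the soft palate of mouse embryos with and without the homeobox gene Dlx5. They were chosen by gene symbol, and all 5 were found among the 49492 gene rows of the deposited table. RNA from the posterior part of the palate at stage E14.5 was sequenced after polyadenylated RNA had been selected. There were 3 libraries from Dlx5-/- embryos and 3 from wild-type controls. The labels name no further allele, agent or treatment, and they are silent on strain, sex and pooling. Whether each library is another embryo is not stated either, so the p-values speak only of the spread among these libraries, part of which may be technical.

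T-box factors bind DNA through a shared domain, and many act as repressors. Tbx2 and Tbx3 are close paralogues that repress cell cycle inhibitors, and mice lacking either can have a cleft palate. Tbx15, Tbx18 and Tbx22 belong to the subfamily of Tbx1, and some members of it recruit Groucho corepressors. Human TBX22 is the gene of X-linked cleft palate with ankyloglossia, and in mice Tbx22 is expressed in the posterior palatal shelves. Dlx5 is expressed in cranial neural crest cells, from which the palate mesenchyme derives.

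Libraries held between 8741020 and 11492409 estimated counts in the Dlx5-/- group and between 6891798 and 11922442 in controls. Levels are given on the counts-per-million scale (CPM) after scaling of the libraries with TMM factors. Dlx5 measured 1.24 ± 0.401 CPM in Dlx5-/- libraries and 19.3 ± 5.86 CPM in controls (SD, n = 3 each), and all 6 libraries matched their labels. Mesenchyme markers were abundant throughout: the sum over 10 of them was 3381 to 4920 CPM in Dlx5-/- libraries and 3806 to 4095 CPM in controls. Of these 10, 4 had an unadjusted p under 0.05, all higher, among them the transcription factor Prrx1 (274, 283 and 229 CPM in Dlx5-/- libraries and 195, 168 and 213 CPM in controls) and the growth factor receptor Pdgfra (344, 339 and 442 CPM in Dlx5-/- libraries and 303, 275 and 321 CPM in controls). Estimates were above 0 for 7 of the 10 and below 0 for 3. The shares of all genes tested at an unadjusted p under 0.05 were 5.61% higher and 7.23% lower (edgeR). The posterior palate genes Meox2 and Barx1, chosen here for tissue identity after their values were seen, averaged 29.8 and 61.3 CPM in Dlx5-/- libraries and 34 and 70.5 CPM in controls. Dlx5-/- replicate 3 stood apart: its mean correlation with the other libraries was 0.959, against 0.970 to 0.976 for the rest, and its 12 brain markers summed to 404 CPM, against 44.4 and 88.9 CPM in the other Dlx5-/- libraries and 73.5 to 82.1 CPM in controls.

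Of the 5 T-box genes, Tbx3 was lower and Tbx18 higher in every Dlx5-/- library than in every control library, while Tbx2, Tbx15 and Tbx22 overlapped between the groups. The estimates were 0.640-fold for Tbx3 and 1.75-fold for Tbx18, Dlx5-/- over control. Neither passed edgeR's quasi-likelihood test after Benjamini-Hochberg adjustment over 16218 genes, and 0 of the 5 were called at an adjusted p of 0.05. That threshold was passed by 0.00617% of all genes, which is Dlx5 alone, while 2 of the 5 had an unadjusted p under 0.05, beside 12.8% of all genes (5.61% higher, 7.23% lower). DESeq2 called 1 of the 5, Tbx3, and 3.62% of all genes it tested. Without a level filter edgeR called Tbx3 and Tbx18 and 2.27% of genes, with scaling on mesenchyme genes Tbx3 and 2.31%, and without Dlx5-/- replicate 3 none of the 5 and 1.01%. Groups did not overlap for 19.2% of all genes, with 9.7% lower and 9.49% higher in Dlx5-/- libraries. The median log2 fold change was 0.09 over the 5 genes and 0.01 over all genes tested.

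**Figure D1:**
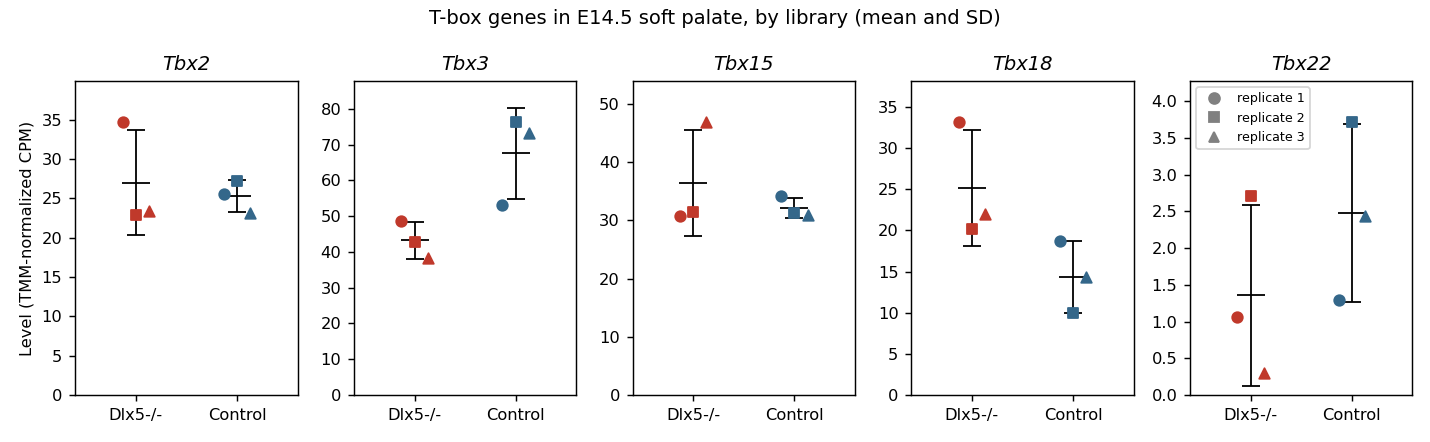
Level of each of the 5 T-box genes in TMM-normalized CPM, with 3 Dlx5-/- libraries left and 3 control libraries right, as mean and SD (bars) and single libraries (symbols). Tbx3 lies at 38.4 to 48.7 CPM in Dlx5-/- and 53.0 to 76.3 CPM in control libraries, and Tbx18 at 20.2 to 33.2 CPM in Dlx5-/- and 10 to 18.7 CPM in control libraries.

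Tbx3, a transcriptional repressor required for limb, mammary gland and palate development, was lower in every Dlx5-/- library than in any control. It measured 48.7, 42.8 and 38.4 CPM in Dlx5-/- replicates 1, 2 and 3, and 53.0, 76.3 and 73.2 CPM in control replicates 1, 2 and 3. The groups lay apart, with control replicate 1 well below the other controls. The log2 fold change was -0.64 (standard error, SE, 0.15; 95% confidence interval -0.99 to -0.30; adjusted p = 0.121, edgeR quasi-likelihood), and Tbx3 ranked at position 342 of all genes by p-value. With DESeq2 it was called at an adjusted p of 0.0068 (log2 fold change -0.65), in an adjusted p range of 0.00326 to 0.411 over 15 alternatives. Without Dlx5-/- replicate 3 the log2 fold change was -0.57 (adjusted p = 0.144, edgeR). In bulk tissue, fewer cells that express a gene and less RNA per cell cannot be told apart, for Tbx3 as for the genes below.

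Tbx3 lies on chromosome 5 from 119670669 to 119684724 on the plus strand (GRCm38, the assembly also called mm10; GENCODE M21). Its exons share 115 bases with exons of the antisense gene Tbx3os1, and no source used here gives the use of strand in counting, so reads of the pair in that stretch may not have been told apart. Tbx3os1 had 8.04, 12.05 and 11.11 estimated counts in Dlx5-/- libraries and 6, 24.47 and 16.21 in controls, against 395 to 509.9 in Dlx5-/- libraries and 492 to 943 in controls for Tbx3.

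Markers of neighbouring tissue differed between the same groups. The 14 markers of pituitary and ventral forebrain, structures just above the palate, summed to 99.6, 110 and 55.2 CPM in Dlx5-/- libraries and 162, 270 and 251 CPM in controls. Of the 11 that passed the level filter, 9 had an unadjusted p under 0.05, all lower. Hesx1 and Nkx2-1, at 0 counts in all Dlx5-/- libraries, did not pass that filter and so had low levels over the 6 libraries. The order of the libraries by the pituitary and ventral forebrain sum and by Tbx3 level was the same in controls and differed in Dlx5-/- libraries. The 12 neuron markers summed to 1763 to 2409 CPM in Dlx5-/- libraries and 3579 to 4538 CPM in controls, with 10 at an unadjusted p under 0.05, all lower. Beside the counts of both lists, 7.23% of all genes tested were lower at that unadjusted p (edgeR). The part of either tissue in the lower Tbx3 level was not tested.

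**Figure D2:**
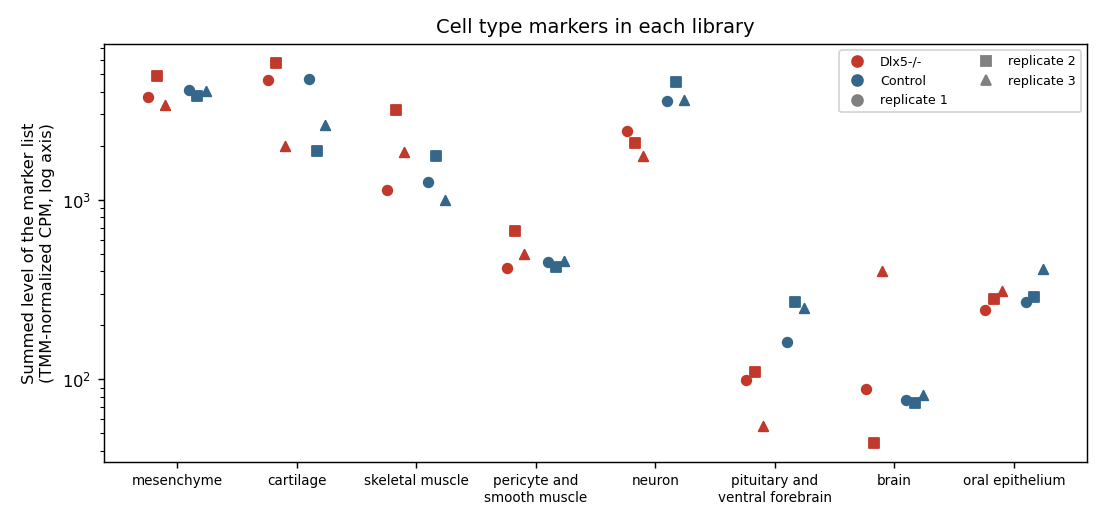
Summed level of 8 marker lists in each library, in TMM-normalized CPM on a log axis, with Dlx5-/- libraries (red) left of controls (blue) in each list. The pituitary and ventral forebrain sum is 55.2 to 110 CPM in Dlx5-/- libraries and 162 to 270 CPM in controls, and the brain sum is high in Dlx5-/- replicate 3 alone, at 404 CPM.

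Tbx2, the paralogue of Tbx3, overlapped between the groups. It measured 34.7, 22.9 and 23.4 CPM in Dlx5-/- replicates 1, 2 and 3, and 25.5, 27.2 and 23.1 CPM in control replicates 1, 2 and 3. Dlx5-/- replicate 1 was the highest library and the other Dlx5-/- libraries lay within or just under the control range. The log2 fold change was 0.09 (SE 0.17; 95% confidence interval -0.31 to 0.48; adjusted p = 0.887, edgeR), an interval from 0.809-fold to 1.39-fold. Its direction was not stable: without Dlx5-/- replicate 1 the log2 fold change was -0.13. Tbx2 lies on chromosome 11 from 85832551 to 85841948 on the plus strand (GRCm38).

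Within a library the reads of Tbx2 and Tbx3 can be set against each other without any scaling. The ratio of Tbx2 counts to Tbx3 counts was 0.714, 0.534 and 0.610 in Dlx5-/- libraries and 0.482, 0.356 and 0.315 in controls. Every Dlx5-/- library lay above every control library, at a mean of 0.619 ± 0.0901 against 0.384 ± 0.0868 (SD, n = 3 each; two-sided exact permutation p = 0.10 on the log2 ratio, the smallest that 3 against 3 allows). This ratio was picked out after the values were seen, among 10 pairs of the 5 genes, of which 3 did not overlap between groups. The share of such pairs over all genes was not computed. Any pair without overlap has p = 0.10 by this exact permutation test, so the value adds nothing to the separation. The ratio comes from the same Tbx2 and Tbx3 counts as the levels above and is no further evidence.

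Tbx18, a T-box gene of somites, heart and the mesenchyme of several organs, was the gene of the 5 with the highest estimate in the knockout relative to control. It measured 33.2, 20.2 and 22.0 CPM in Dlx5-/- replicates 1, 2 and 3, and 18.7, 10 and 14.3 CPM in control replicates 1, 2 and 3. The groups did not overlap, with Dlx5-/- replicate 1 the highest library and control replicate 1 just under Dlx5-/- replicate 2. The log2 fold change was 0.81 (SE 0.26; 95% confidence interval 0.21 to 1.41; adjusted p = 0.235, edgeR). It stayed above 0 in all 15 alternatives, between 0.56 and 1.05, with an adjusted p from 0.0184 (edgeR, no level filter) to 0.565. Without Dlx5-/- replicate 3 the log2 fold change was 0.90 (adjusted p = 0.187, edgeR).

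Tbx18 lies on chromosome 9 from 87702800 to 87731260 on the minus strand (GRCm38). An annotated transcript on the other strand, D030062O11Rik, shares 970 exonic bases with it and had at most 8.82 estimated counts in any library, against 100 to 292 for Tbx18. The 11 cartilage markers varied strongly between libraries, with sums of 4659, 5795 and 1992 CPM in Dlx5-/- replicates 1, 2 and 3 and of 4703, 1872 and 2617 CPM in control replicates 1, 2 and 3. The order of the libraries by this sum and by Tbx18 level was the same in controls and differed in Dlx5-/- libraries. Estimates were above 0 for 10 of the 11 cartilage markers and below 0 for 1, with a median log2 fold change of 0.40. Only 1 of them, Sox9 (log2 fold change 0.79), had an unadjusted p under 0.05, and it was higher. The 12 pericyte and smooth muscle markers, another place of Tbx18 expression, summed to 419, 674 and 502 CPM in Dlx5-/- libraries and 454, 425 and 456 CPM in controls, with 2 higher and 1 lower at an unadjusted p under 0.05. Over all genes tested, the shares at that p were 5.61% higher and 7.23% lower (edgeR). Of the mesenchyme markers, only Prrx1 and Pdgfra were, like Tbx18, higher in every Dlx5-/- library than in every control. Their log2 fold changes were 0.45 and 0.32. Such a separation was seen for 9.49% of all genes. Of the 10 mesenchyme markers, 7 had estimates above 0 and 3 below, namely Msx1 (-0.76), Col1a2 (-0.21) and Prrx2 (-0.11). With scaling on mesenchyme genes the Tbx18 estimate was 0.67. The part of mesenchyme, pericyte, muscle and cartilage cells in the Tbx18 difference was not tested.

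**Figure D3:**
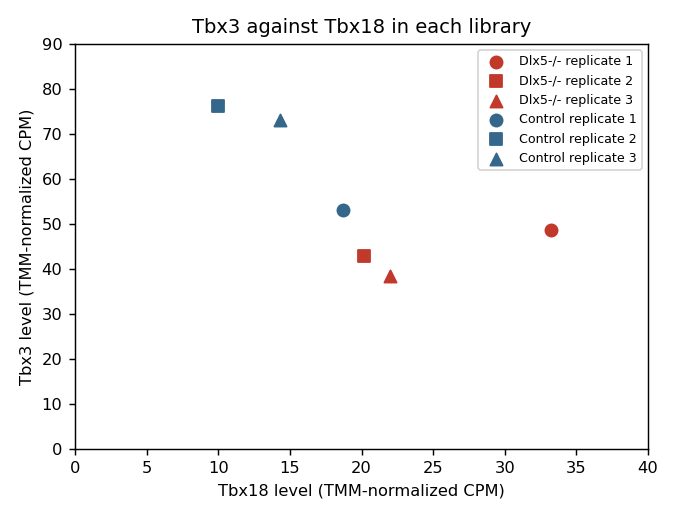
Tbx3 level (vertical axis) against Tbx18 level (horizontal axis) in each library, both in TMM-normalized CPM, with Dlx5-/- libraries in red and controls in blue. All 3 Dlx5-/- libraries lie to the right of and below the 3 controls, with control replicate 1 (18.7 and 53.0 CPM) nearest to them.

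Among the 3 pairs whose groups did not overlap, the contrast was widest in the ratio of Tbx3 to Tbx18 reads. It was 1.47, 2.12 and 1.75 in Dlx5-/- libraries and 2.83, 7.60 and 5.11 in controls, with control replicate 1 nearest to the Dlx5-/- libraries. On the log2 scale the groups differed by -1.44. Since Tbx3 was lower and Tbx18 higher in every Dlx5-/- library, this separation follows from the levels above and is no further evidence. The third pair without overlap was Tbx2 to Tbx18, with ratios of 1.05 to 1.13 in Dlx5-/- libraries and 1.36 to 2.71 in controls.

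Of the 5 genes, 2 matched in the promoter table, Tbx18 and Tbx22, and Tbx2, Tbx3 and Tbx15 were not searched. The promoters of Tbx18 and Tbx22 are shown as the stretches in which homeodomain and T-box motifs were sought. Both are the 250 bases before the 5′ start site, from RefSeq on GRCm38.p6, read 5′ to 3′ on the gene's strand. Tbx18 is at chr9:87731261-87731510, minus strand, and Tbx22 at chrX:107667714-107667963, plus strand.
Tbx18: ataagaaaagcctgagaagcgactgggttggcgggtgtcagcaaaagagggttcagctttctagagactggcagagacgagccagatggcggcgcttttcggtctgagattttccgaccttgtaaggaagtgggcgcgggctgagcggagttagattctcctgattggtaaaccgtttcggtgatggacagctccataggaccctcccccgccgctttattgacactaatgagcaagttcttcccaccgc
Tbx22: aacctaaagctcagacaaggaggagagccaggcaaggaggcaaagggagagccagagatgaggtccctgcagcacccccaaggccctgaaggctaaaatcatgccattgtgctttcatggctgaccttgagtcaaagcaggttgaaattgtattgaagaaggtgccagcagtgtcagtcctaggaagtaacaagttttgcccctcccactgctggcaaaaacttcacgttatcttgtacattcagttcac

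The homeodomain motifs TAATTA and TAATTG and the T-box motif AGGTGTGA were searched on both strands. None of the 3 is found in either stretch, so no letters are in capitals. Tbx22 has further start sites, at 107676512 and 107679015 on chromosome X, which are not shown. The 250 bases before each of them held none of the 3 motifs either. In the 50 bases after the start site, Tbx18 holds 1 match, the reverse complement of TAATTG, which starts 42 bases from the start site (capitals, at chr9:87731211-87731233).
Tbx18 site: aaggcaacaaatttCAATTAcaa

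Of 32851 mouse promoters of the same 300-base window, 8.0% hold TAATTG, 5.3% hold TAATTA and 1.3% hold AGGTGTGA. The match describes letters in this window only.

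Tbx15, a T-box gene of skeletal and skin mesenchyme, overlapped between the groups. It measured 30.7, 31.5 and 46.9 CPM in Dlx5-/- replicates 1, 2 and 3, and 34.1, 31.2 and 31.0 CPM in control replicates 1, 2 and 3. Only Dlx5-/- replicate 3, the library with the highest brain marker sum, stood above the others. The log2 fold change was 0.19 (SE 0.17; 95% confidence interval -0.19 to 0.57; adjusted p = 0.693, edgeR), and without that library it was -0.05 (adjusted p = 0.900, edgeR). Tbx15 lies on chromosome 3 from 99240381 to 99354259 on the plus strand (GRCm38), and no exon of another annotated gene overlaps its exons.

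Tbx22, the cleft palate gene, had few reads in every library. There were 9, 25 and 4 Tbx22 counts in Dlx5-/- replicates 1, 2 and 3, and 12, 46 and 17 counts in control replicates 1, 2 and 3. These are 1.06, 2.71 and 0.301 CPM in Dlx5-/- libraries and 1.29, 3.72 and 2.44 CPM in controls. Replicate 2 was the highest library in both groups, and the groups overlapped. For the 4 counts of Dlx5-/- replicate 3 the exact 95% Poisson interval was 1.09 to 10.2 counts, and for the 46 counts of control replicate 2 it was 33.7 to 61.4. These intervals cover counting error only. The log2 fold change was -0.92 (SE 0.72; 95% confidence interval -2.57 to 0.73; adjusted p = 0.651, edgeR), so anything from 0.169-fold to 1.66-fold was compatible with the counts. Without Dlx5-/- replicate 2 it was -1.97, and without Dlx5-/- replicate 3 it was -0.41. Tbx22 lies on chromosome X from 107667964 to 107688978 on the plus strand (GRCm38). Mn1, an activator upstream of Tbx22 in the mouse palate and picked for that role after its values were seen, measured 134 to 166 CPM in Dlx5-/- libraries and 130 to 154 CPM in controls.

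Per kilobase of exon, with lengths from GENCODE M21, the order of the 5 genes was not the same in the 2 groups. In Dlx5-/- libraries Tbx15 led at 9.71 ± 2.44 CPM per kilobase, followed by Tbx2 at 7.45 ± 1.85, Tbx3 at 6.53 ± 0.779 and Tbx18 at 5.32 ± 1.5 (SD, n = 3 each). Each of these 4 overlapped with its neighbours among them, and all lay above Tbx22. In control libraries Tbx3 led at 10.2 ± 1.92 CPM per kilobase and overlapped with Tbx15 at 8.56 ± 0.473, while Tbx2 at 6.97 ± 0.571 and Tbx18 at 3.05 ± 0.921 lay apart from their neighbours. Tbx22 was last in both groups, at 0.245 ± 0.222 CPM per kilobase in Dlx5-/- libraries and 0.448 ± 0.219 in controls. Of the summed level of the 5 genes per length, Tbx3 made up 22.7%, 24.9% and 19.6% in Dlx5-/- libraries and 28.2%, 38.2% and 37.9% in controls. The share of Tbx18 was 21.7%, 16.5% and 15.8% in Dlx5-/- libraries and 14.0%, 7.06% and 10.4% in controls.

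The genes with patterns most like those of the 5 were sought by the root mean square distance of centred log2(CPM + 1) values over the 6 libraries, among 11580 genes with a mean of at least 5 CPM. Genes named Gm or Rik were left out. The nearest of so many genes lie below the median by selection, so the distances are description only. For Tbx3 the nearest were Fabp5, a fatty acid binding protein, and Osbpl3, an oxysterol binding protein relative, at distances of 0.066 and 0.074 against a median of 0.40 over these genes. Fabp5 measured 135, 114 and 96.8 CPM in Dlx5-/- libraries and 139, 183 and 195 CPM in controls. For Tbx18 the nearest were the transcription factors Gata2 and Sox9, at 0.122 and 0.147 against a median of 0.52. Gata2 measured 23.7, 18.4 and 17.9 CPM in Dlx5-/- libraries and 13.6, 7.37 and 12 CPM in controls, and Sox9, the master regulator of cartilage, 373, 298 and 285 CPM in Dlx5-/- libraries and 264, 120 and 171 CPM in controls. For Tbx2 they were Wdpcp and Polr2j (0.043 and 0.052; median 0.25), for Tbx15 Zscan26 and Pink1 (0.040 and 0.045; median 0.26) and for Tbx22 Col22a1 and Aldh1a2 (0.212 and 0.221; median 0.64). Among the 5 themselves, the closest pair was Tbx2 and Tbx15 at 0.34 and the farthest Tbx18 and Tbx22 at 1.03.

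Of 17 T-box genes, 10 passed the level filter of a mean of 1 CPM, and 0 were called by the main edgeR test, with 2 higher and 2 lower at an unadjusted p under 0.05. Over all genes tested, 5.61% were higher and 7.23% lower at that unadjusted p (edgeR). DESeq2 called 1, Tbx3, and edgeR without a level filter 3, namely Tbx3, Tbx18 and Tbx1. The shares of all genes called were 3.62% with DESeq2 and 2.27% without a filter. Tbx1, a regulator of pharyngeal arch and palate muscle, measured 13, 13.9 and 22 CPM in Dlx5-/- libraries and 11.9, 5.59 and 8.17 CPM in controls, above every control in every Dlx5-/- library (log2 fold change 0.94, SE 0.31; adjusted p = 0.247 by the main edgeR test and 0.0313 with no level filter). Skeletal muscle markers summed to 1132, 3152 and 1855 CPM in Dlx5-/- libraries and 1257, 1748 and 994 CPM in controls. Of the 11 that passed the level filter, all had estimates above 0, with a median log2 fold change of 0.99, and 7 had an unadjusted p under 0.05. Their part in the Tbx1 level was not tested. Mga, a large T-box and Max-binding protein, had the narrowest interval, at 152 to 159 CPM in Dlx5-/- libraries and 142 to 163 CPM in controls (log2 fold change 0.02, 95% confidence interval -0.17 to 0.20; with scaling on mesenchyme genes the estimate was -0.13).

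Tbx19, the T-box factor of pituitary corticotropes, had 10, 7 and 0 counts in Dlx5-/- libraries and 19, 31 and 24 in controls (adjusted p = 0.334, edgeR), and it is itself 1 of the pituitary markers above. Tbr1, a T-box factor of cortical neurons, had 4, 1 and 90 counts in Dlx5-/- libraries and 5, 2 and 8 in controls, so its high count was in Dlx5-/- replicate 3 alone. Tbx4, a gene of hindlimb and lung mesenchyme, had 8, 22 and 17 counts in Dlx5-/- libraries and 4, 6 and 9 in controls (adjusted p = 0.482, edgeR). The other 7, namely Tbx5, Tbx6, Tbx10, Tbx20, Tbx21, T and Eomes, had between 1 and 31 counts over all libraries of either group and did not pass the filter.

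**Figure D4:**
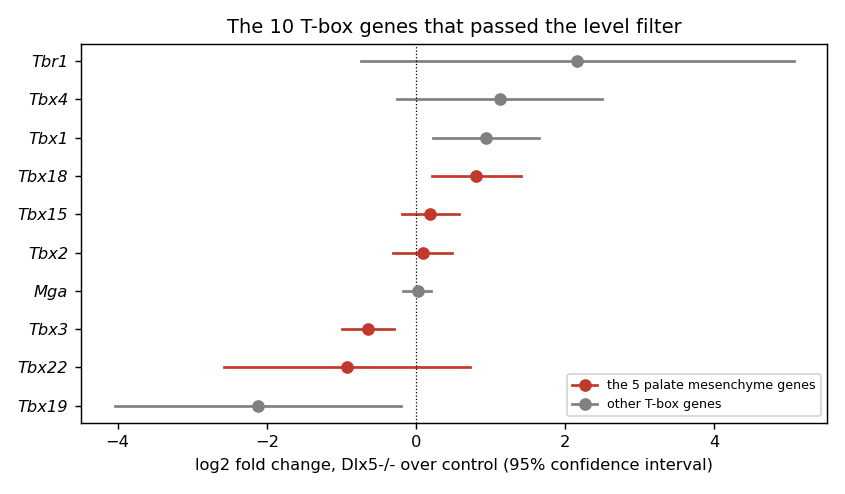
Log2 fold change, Dlx5-/- over control, with 95% confidence interval for the 10 T-box genes that passed the filter; the 5 palate mesenchyme genes are in red and the others in grey. Tbx18 (0.21 to 1.41), Tbx1 (0.23 to 1.65), Tbx3 (-0.99 to -0.30) and Tbx19 (-4.04 to -0.20) have intervals that leave out 0, before any adjustment for the number of genes tested.

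Among 19 measured transcription factors of the palate mesenchyme outside the T-box family, 0 were called by the main edgeR test, while 2 had an unadjusted p under 0.05 in the higher direction and 3 in the lower. Over all genes tested, 5.61% were higher and 7.23% lower at that unadjusted p (edgeR). DESeq2 called 3, all lower, edgeR without a level filter 4 (1 higher, 3 lower) and edgeR with mesenchyme scaling 2, both lower, with Lhx8 and Pax9 called by each of these. In the same order, these fits called 3.62%, 2.27% and 2.31% of all genes. Among those with the smallest p-values were Lhx8 (log2 fold change -1.19; adjusted p = 0.0882, edgeR), a LIM homeobox gene of palate and tooth mesenchyme, Pax9 (-0.67; 0.114) and Gli3 (0.32; 0.133). Pax9 measured 28.1, 23.7 and 24.7 CPM in Dlx5-/- libraries and 32.9, 39.4 and 50 CPM in controls. Lhx8 and Pax9 had groups that did not overlap, in the same direction as Tbx3, and Gli3 in the other direction. Of the 19, groups did not overlap for 2 higher and 3 lower, beside 9.49% and 9.7% of all genes. The median log2 fold change of the 19 was -0.25, against 0.01 over all genes.

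Of 19 kept signalling genes of the palate and their response genes, 0 were called by the main edgeR test, with 4 higher and 1 lower at an unadjusted p under 0.05. Over all genes tested, 5.61% were higher and 7.23% lower at that unadjusted p (edgeR). DESeq2 called 3, all higher, namely Lef1, Tgfb2 and Wnt5a, as did edgeR without a level filter. DESeq2 called 3.62% of all genes and edgeR without a filter 2.27%. Lef1, a nuclear effector of Wnt signals, measured 52.7, 39.7 and 59.7 CPM in Dlx5-/- libraries and 36.8, 18.6 and 26.7 CPM in controls (log2 fold change 0.90; adjusted p = 0.158, edgeR). Fgf10, Tgfb2 and Wnt5a, which encode secreted factors, had log2 fold changes of 0.66, 0.49 and 0.68 with adjusted p-values of 0.186, 0.188 and 0.211 (edgeR). Wnt5a measured 47.8, 50.8 and 80.9 CPM in Dlx5-/- libraries and 42.7, 32.1 and 38.3 CPM in controls, and without Dlx5-/- replicate 3 its log2 fold change was 0.39.

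Corepressors and SUMO enzymes through which T-box factors act had a median log2 fold change of 0.00, with 0 of 12 called by the main edgeR test or by DESeq2, and 1 higher and 1 lower at an unadjusted p under 0.05. For this list and the next, the shares over all genes at that p were 5.61% higher and 7.23% lower (edgeR). The Groucho gene Tle4 measured 48.6 ± 0.980 CPM in Dlx5-/- libraries and 57.5 ± 7.41 CPM in controls (SD, n = 3 each). Senp1, a SUMO protease, measured 45.8 ± 2.89 CPM in Dlx5-/- libraries and 38.7 ± 4.34 CPM in controls. Genes described as repressed by TBX2 or TBX3, with their relatives, were 7 after the filter, with 0 called by the main edgeR test, 1 higher and 2 lower at an unadjusted p under 0.05. DESeq2, edgeR without a level filter and edgeR with mesenchyme scaling each called 1, Cdh1 (lower), beside 3.62%, 2.27% and 2.31% of all genes. Cdkn1a, the cell cycle inhibitor p21, measured 23.9, 30.3 and 24.8 CPM in Dlx5-/- libraries and 18.7, 23.4 and 18.9 CPM in controls (log2 fold change 0.37; adjusted p = 0.321, edgeR). The inhibitors Cdkn2d and Cdkn1c had log2 fold changes of -0.30 and 0.22 (adjusted p = 0.377 and 0.412, edgeR). The median over the 7 genes was -0.17. Cdh1, the epithelial cadherin, had a log2 fold change of -0.51 (adjusted p = 0.142, edgeR). The oral epithelium marker sum, which includes Cdh1 itself, was 243 to 312 CPM in Dlx5-/- libraries and 269 to 415 CPM in controls. Cdkn2a and Cdkn2b did not pass the filter.

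**Figure D5:**
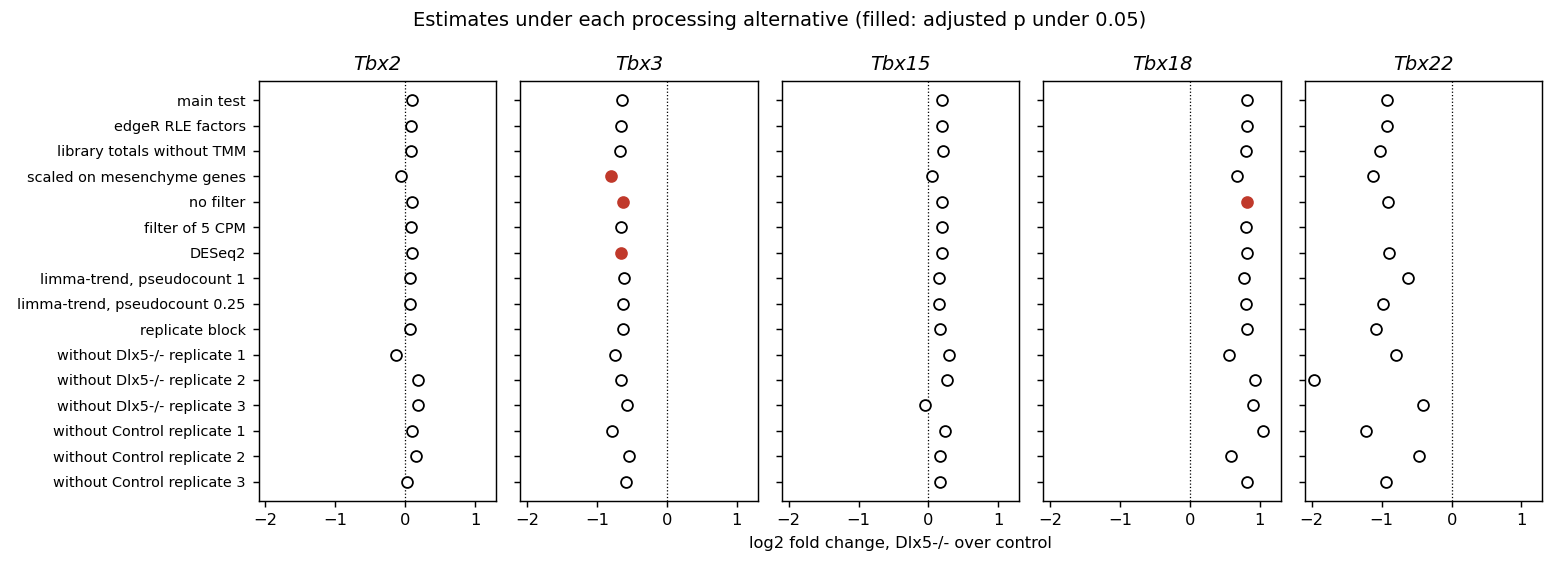
Log2 fold change, Dlx5-/- over control, of each of the 5 T-box genes (panels) under the main test and each processing alternative (rows); filled circles mark an adjusted p under 0.05. Tbx3 stays between -0.80 and -0.54 and Tbx18 between 0.56 and 1.05, while Tbx2 and Tbx15 cross 0, and Tbx22 has no value with the filter of 5 CPM.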

How the data were processed

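RNA was sequenced from 3 Dlx5-/- and 3 control libraries of E14.5 soft palate. STAR 2.4.1d, Partek and build mm10 are named in the submitters' processing notes. The deposited table holds estimated counts per gene and library. Its name says normalized, but column totals differ, and 64.5% of values above 0.5 were whole within 0.001. There was 1 more column, which fits no labelled sample and was left aside. Columns were assigned by their names.

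Counts were rounded, and 16218 genes with a mean of at least 1 CPM were kept. edgeR 4.0.16 (R 4.3.3; TMM; quasi-likelihood; Benjamini-Hochberg at 0.05) compared the groups. Levels are TMM-normalized CPM. SE came from the F statistic, and intervals are 95%. Alternatives used DESeq2 1.42.0, limma 3.58.1 with pseudocounts of 1 and 0.25, other scalings and filters, a replicate block, and each library left out. The genes and lists were chosen with earlier results of these data known. Genes named from lists are the up to 4 with the smallest p-values, and like patterns the 2 nearest; some genes so selected are not reported here.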

Additional observations from a re-analysis of the deposited data

How the results depend on the processing

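None of the 5 T-box genes was called by the main test (count 0), and with the threshold at 0.1 the count was also 0. The count was 1 with DESeq2 and with scaling on 12 mesenchyme genes, and 2 without a level filter. Tbx3 was the gene called by DESeq2 (log2 fold change -0.65), with mesenchyme scaling (-0.80, adjusted p = 0.0441, edgeR) and without a filter (-0.63), and Tbx18 without a filter (0.82). Mesenchyme scaling moved the median of all genes to -0.13 and turned Tbx2 to -0.06 and Mga to -0.13. With libraries left out, Tbx2 ran from -0.13 to 0.18, Tbx3 from -0.79 to -0.54, Tbx15 from -0.05 to 0.30, Tbx18 from 0.56 to 1.05 and Tbx22 from -1.97 to -0.41; Mga ran from -0.04 (without control replicate 1) to 0.06. Tbx15 was -0.05 without Dlx5-/- replicate 3, and Tbx2 was -0.13 without Dlx5-/- replicate 1. Over the 5 genes, no leave-one-out fit made a call.

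The number of all genes called was 1 with the main test and with RLE factors. It was 41 with library totals, 374 with mesenchyme scaling (8 higher, 366 lower), 679 without a filter, 74 with a filter of 5 CPM, 506 with DESeq2 (120 higher, 386 lower), 97 and 94 with limma-trend at pseudocounts of 1 and 0.25, and 299 at a threshold of 0.1. With 1 library left out it ran from 0 to 164, the latter without Dlx5-/- replicate 3. The cause of these differences was not tested. Replicate numbers are shared between groups, but same-numbered libraries did not deviate together (correlations of -0.014, -0.011 and 0.020). With a replicate block 0 genes were called, with 0 of the 5 T-box genes, and Dlx5 had an adjusted p of 0.062 (edgeR). DESeq2 gave Tbx22 no adjusted p, and the filter of 5 CPM removed it. Counts were low for Tbx22 (4 to 46 per library), Tbx4 (4 to 22) and Tbx19 (0 to 31).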
